A study of Mus musculus with 8 samples.

Results

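Astrocytes take up water, potassium and transmitter around synapses, and 10 genes that carry out or mark these tasks were followed in the hippocampus of mice that lack the lysosomal enzyme beta-glucuronidase. The members were fixed by name: Aqp4, Slc1a2, Slc1a3, Gja1, Gjb6, Aldoc, Glul, S100b, Sox9 and Atp1b2. All 10 were on the array, with 23 of the 20380 probe sets that carry 1 gene symbol, and they are 10 of 12393 measured genes. Hippocampal RNA of the right hemisphere was hybridised to 1 Affymetrix mouse array per animal, for 4 normal and 4 mutant mice. Both groups were bred from carrier brother-sister pairs of the strain B6.C-H2-Kbm1/ByBir and housed together. Normal mice were carriers with the Gusb genotype mps/+, so they too held a mutant allele, and mutant mice were mps/mps, a model of mucopolysaccharidosis VII. Each group held 2 females and 2 males. Normals 1 to 4 were 38.3, 25.6, 19.6 and 14.6 weeks old, and mutants 1 to 4 were 38.3, 25.6, 25.6 and 19.6 weeks old.

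Aquaporin-4, encoded by Aqp4, is the main water channel of astrocyte endfeet. The transporters encoded by Slc1a2 (GLT-1) and Slc1a3 (GLAST) clear glutamate from the synapse, and glutamine synthetase, the product of Glul, turns it into glutamine. The connexins encoded by Gja1 and Gjb6 join astrocytes into a network through gap junctions. Atp1b2 encodes a beta subunit of the sodium pump, Aldoc a brain aldolase of glycolysis, S100b a calcium-binding protein and Sox9 a transcription factor of astrocytes. Several of these genes are also used outside astrocytes: Aqp4 and S100b in ependymal cells, Sox9 in ependyma and choroid plexus, Gja1 in meningeal fibroblasts, and Glul and S100b in oligodendrocytes.

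Values are log2 expression after the authors' RMA normalization, so a difference of 1 is a doubling. Levels of different genes are not ranked against each other, and a difference between genes within an array is used only to compare the groups. Array medians lay between 6.09 and 6.17. All values of the 23 probe sets were 4.07 or higher, above the highest value (3.72) of 27 control probe sets for bacterial transcripts. The 3 prime minus 5 prime value of the actin and Gapdh controls, a measure of RNA integrity, was 3.58 in normal 1 and 0.22 to 0.75 in the other arrays. As a check of the labels, Gusb read 5.40 to 6.56 in normals and 4.36 to 4.71 in mutants on 1448124_at, with every mutant below every normal (-1.40 ± 0.23, SE; limma adjusted p = 0.136 over all probe sets). On its other probe set, 1430332_a_at, the groups overlapped. Regional marker levels differed between arrays within both groups, and those of striatal markers also between most normals and the mutants. The mean of 9 striatal markers was 9.34 to 10.1 in normals 1, 3 and 4, 7.62 in normal 2 and 6.48 to 7.69 in mutants. The mean of 12 thalamic and habenular markers was highest in mutants 2 and 4 and normal 2 (9.86, 9.78 and 9.43) and 7.18 to 8.72 elsewhere. The mean of 4 CA1 pyramidal markers was 8.23 to 9.45 in normals 1, 3 and 4 and mutant 3, and 6.91 to 7.23 in the other arrays. In such bulk RNA, a change in the number of astrocytes and a change in RNA per astrocyte cannot be told apart.

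On the probe set used for each gene, the brightest, Aqp4 had the lowest p of the 10 genes, and Sox9 and Atp1b2 came next. Slc1a2 alone had a lower mean in mutants. No member passed the threshold of adjusted p 0.05 in limma over all genes, where adjusted p ran from 0.446 to 0.950 for the 10. Of 12393 genes, 12 rose past it (0.0968%) and 1 fell (0.00807%), so 0 of 10 members says little by itself. At an unadjusted p under 0.05 stood 3 of 10 members (Aqp4, Sox9 and Atp1b2), all higher in mutants, and 809 of all genes (6.53%). The median change of the 10 was 0.22, against 0.011 over all genes. Mutant means were higher for 9 of the 10 members and for 52.5% of all genes. The groups did not overlap for 1 member, Aqp4, with every mutant above every normal, as for 2.27% of all genes. Every mutant lay below every normal for 0 members and for 1.61% of genes. The order changed with the mean of all probe sets of a gene. Sox9 then had the lowest limma adjusted p (0.284), followed by Aqp4 (0.387) and Aldoc (0.398). Atp1b2 was then at 0.879, and Glul also had a lower mean in mutants (-0.19).

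**Figure D1:**
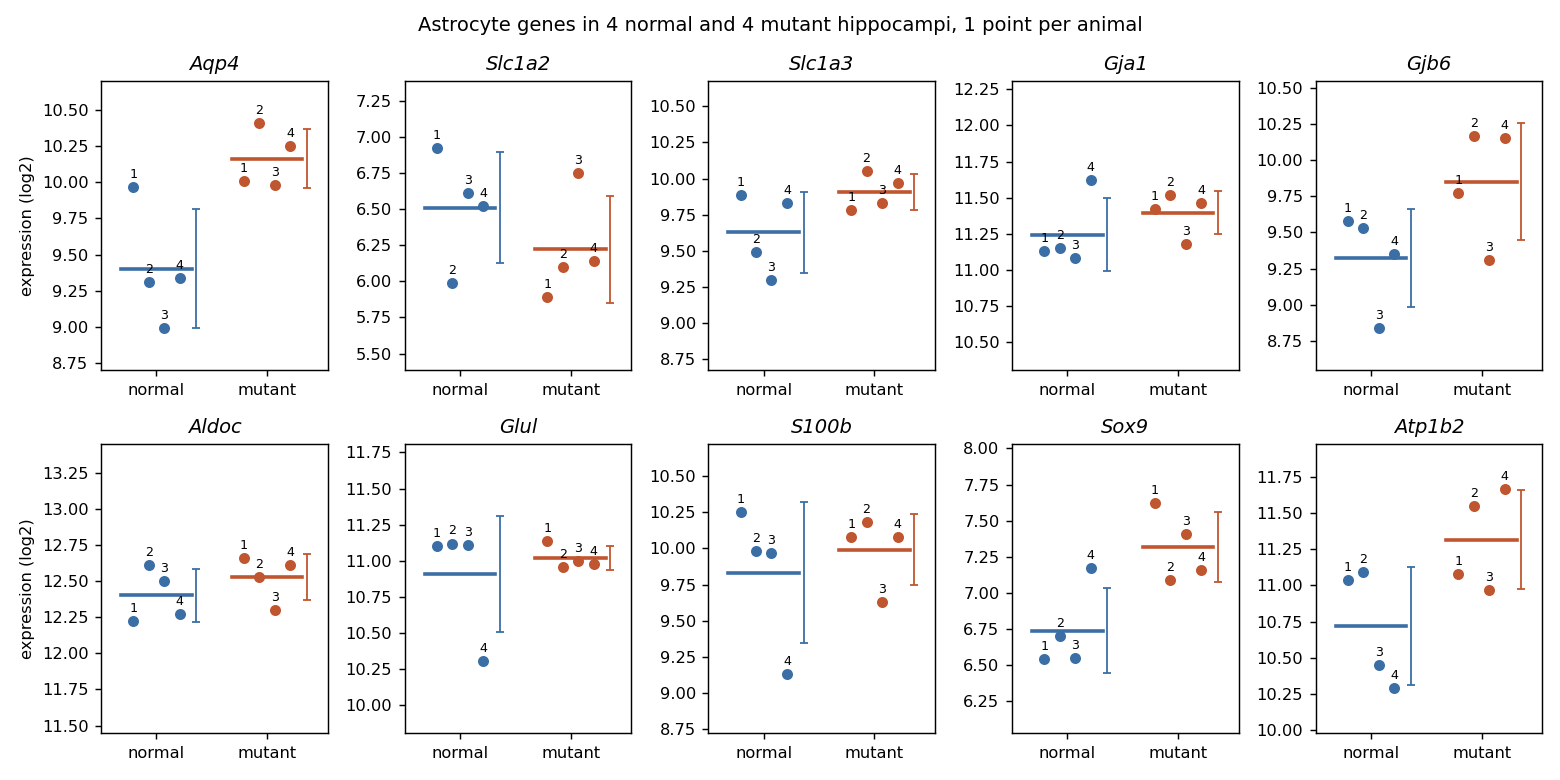
Expression (log2) of the 10 genes in each animal, 1 panel per gene, with normals in blue and mutants in orange. Digits are animal numbers within the group, thick lines group means and vertical bars the SD (n = 4), and every panel spans 2 log2 units. The 4 mutants lie above the 4 normals for Aqp4, by 0.01 at the closest, and the groups overlap in the other 9 panels.

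The water channel gene Aqp4 was higher in mutants on both of its probe sets. On 1434449_at, its brightest probe set and so the one used, normals 1 to 4 were at 9.97, 9.31, 8.99 and 9.34, and mutants 1 to 4 at 10.01, 10.41, 9.98 and 10.25. The lowest mutant stood 0.01 above the highest normal, normal 1, and the other 3 normals lay lower. After median centring of the arrays the groups overlapped. The means were 9.40 ± 0.41 in normals and 10.16 ± 0.20 in mutants (SD, n = 4 each), a change of 0.76 ± 0.21 (SE), or 1.70-fold. The 95% interval of the change ran from 0.28 to 1.24, and it did not pass over all genes (limma adjusted p = 0.446). Without normal 1 the change was 0.95 (limma adjusted p = 0.104). On the other probe set (1425382_a_at) the values were 6.39 to 7.98 in normals and 7.26 to 8.31 in mutants, with a change of 0.53 ± 0.36 (SE; limma adjusted p = 0.901 over all probe sets). There normal 2 lay above 3 of the mutants, normal 1 was the lowest array, and the change without normal 1 was 0.30.

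On the probe sets used, the glutamate transporter gene Slc1a2 was the exception in direction. Its only probe set (1451627_a_at) read 6.92, 5.99, 6.61 and 6.52 in normals 1 to 4 and 5.89, 6.10, 6.75 and 6.14 in mutants 1 to 4. The arrays fell into a higher set (normals 1, 3 and 4 and mutant 3) and a lower set (normal 2 and mutants 1, 2 and 4) that cut across genotype. The higher set is the one with CA1 means of 8.23 to 9.45. The group means were 6.51 ± 0.38 and 6.22 ± 0.37 (SD, n = 4 each), a change of -0.29 ± 0.24 (SE) with an interval of -0.84 to 0.26 (limma adjusted p = 0.907). It was -0.15 without normal 1, -0.46 without normal 2, -0.18 without mutant 1 and -0.47 without mutant 3. With the first principal component of the regional markers as a covariate the change was 0.014.

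Slc1a3 differed from Slc1a2 in how it ordered the arrays. On the probe set used (1452031_at), normals 1 to 4 read 9.89, 9.49, 9.30 and 9.83 and mutants 1 to 4 read 9.78, 10.05, 9.83 and 9.97. All mutants lay above normals 2 and 3, and normals 1 and 4 fell among them. The change was 0.28 ± 0.15 (SE), from 9.63 ± 0.28 to 9.91 ± 0.13 (SD, n = 4 each), with an interval of -0.075 to 0.63 (limma adjusted p = 0.843), and it was 0.17 without normal 3. The difference was 0.11 ± 0.28 on 1426340_at and -0.17 ± 0.45 on 1426341_at (SE), where normal 1 was the lowest array and the change without it was -0.46. On both of these, normal 4 and mutant 3 were the highest arrays (8.77 and 8.61, 10.19 and 9.76), and they are also the arrays with the highest CA1 means. The mean of the 3 probe sets differed by 0.071.

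Glul, which encodes the enzyme that detoxifies the glutamate taken up, gave opposite signs on its probe sets. On 1426236_a_at, the one used, normals 1 to 3 lay within 11.10 to 11.12, mutants within 10.96 to 11.14, and normal 4 stood apart at 10.31. The change was 0.11 ± 0.19 (SE; interval -0.32 to 0.55), and it was -0.089 without normal 4, 0.071 without mutant 1 and 0.17 to 0.18 without any 1 of the other normals. On 1426235_a_at the normals were at 9.28, 9.39, 9.41 and 9.08 and the mutants at 9.35, 8.74, 8.51 and 8.64. There 3 of 4 mutants lay below all normals, and the change was -0.48 ± 0.19 (SE; limma adjusted p = 0.812 over all probe sets). The sign of the Glul difference thus depended on the probe set.

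Of the gap junction genes, Gjb6 had the larger difference between the groups on the probe sets used. Its only probe set (1448397_at) read 9.58, 9.53, 8.84 and 9.35 in normals 1 to 4 and 9.77, 10.17, 9.31 and 10.15 in mutants 1 to 4. Mutants 1, 2 and 4 were above every normal, and mutant 3 was below 3 of them. The means were 9.32 ± 0.34 and 9.85 ± 0.41 (SD, n = 4 each), a change of 0.53 ± 0.24 (SE), or 1.44-fold, with an interval of -0.013 to 1.07 (limma adjusted p = 0.773). The thalamic and habenular mean was highest in mutants 2 and 4, which also had the highest Gjb6. Without these mutants the change was 0.22, and without mutants 1 and 3 it was 0.84. With the first regional component as a covariate it was 0.31, and with the first 2 it was 0.64. What part the regional content plays in the Gjb6 difference was not tested further.

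Gja1, the other connexin gene, was measured by 6 probe sets, of which 5 had higher means in mutants, by 0.15 to 0.31. On the one used (1437992_x_at, whose name marks possible cross-hybridisation), normals 1 to 4 read 11.13, 11.15, 11.08 and 11.62 and mutants 1 to 4 read 11.42, 11.52, 11.18 and 11.46. Normal 4 was the highest of all 8 arrays, and the 3 other normals were the lowest. The change was 0.15 ± 0.15 (SE), with an interval of -0.19 to 0.49 (limma adjusted p = 0.920). It was 0.27 without normal 4 and 0.094 without normal 3. On 1415800_at, which carries no such mark, it was 0.31 ± 0.22 (SE). The probe set 1415801_at ran the other way, at -0.17 ± 0.59 (SE), with 6.27 in normal 1 against 7.16 to 9.12 in the other arrays, and at -0.77 without normal 1.

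**Figure D2:**
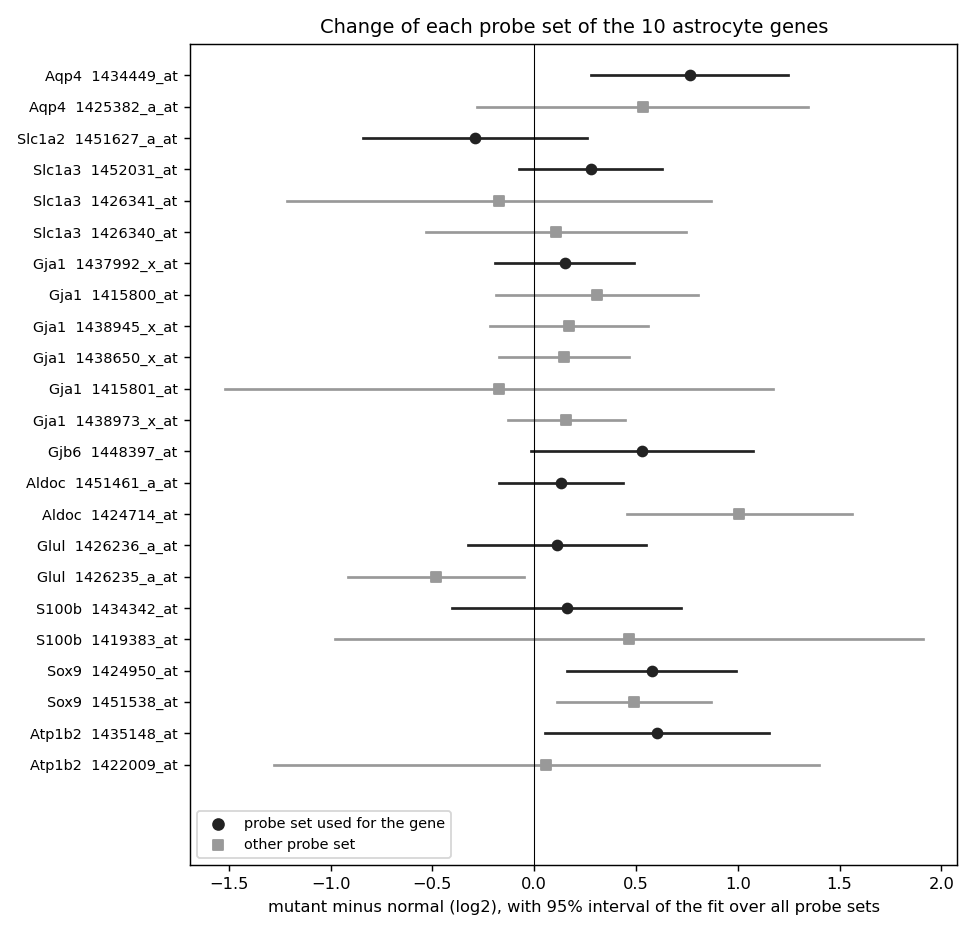
Mutant minus normal (log2) for each of the 23 probe sets, with the 95% interval from the limma fit over all probe sets. Black circles mark the probe set used for a gene and grey squares the others; the highest estimate is Aldoc 1424714_at at 1.01 and the lowest Glul 1426235_a_at at -0.48.

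The sodium pump gene Atp1b2 and the transcription factor gene Sox9 had the next largest changes after Aqp4 on the probe sets used. Atp1b2 (1435148_at) read 11.04, 11.09, 10.45 and 10.29 in normals 1 to 4 and 11.08, 11.55, 10.97 and 11.67 in mutants 1 to 4. The lowest mutants overlapped normals 1 and 2, and mutants 2 and 4 stood above every normal. The change was 0.60 ± 0.24 (SE), or 1.52-fold, with an interval of 0.056 to 1.15 (limma adjusted p = 0.717). Without mutants 2 and 4, which had the highest thalamic and habenular means, it was 0.31. Without mutants 1 and 3 it was 0.90. With the first regional component as a covariate it was 0.36, and with the first 2 it was 0.63. The part of regional content was not tested further. The other probe set of Atp1b2, 1422009_at, gave 0.060 ± 0.59 (SE), with normal 1 at 5.52 against 6.85 to 8.28 in the other arrays, and -0.56 without normal 1. The mean of its probe sets differed by 0.33.

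Sox9 was higher in mutants on both probe sets. On 1424950_at normals 1 to 4 read 6.54, 6.70, 6.55 and 7.17 and mutants 1 to 4 read 7.62, 7.09, 7.41 and 7.16. All mutants were above normals 1 to 3, and normal 4, the youngest animal, was above mutants 2 and 4. The change was 0.58 ± 0.18 (SE), or 1.49-fold, from 6.74 ± 0.30 to 7.32 ± 0.24 (SD, n = 4 each), with an interval of 0.16 to 0.99 (limma adjusted p = 0.572). On 1451538_at it was 0.49 ± 0.16 (SE). Mutants 1 and 3, the highest for Sox9 on the first probe set, also had choroid plexus marker means of 7.81 and 6.88, against 4.40 to 5.20 in the other 6 arrays. Without them the Sox9 change was 0.38, and without mutants 2 and 4 it was 0.77. The part of choroid plexus RNA in the Sox9 difference was not tested.

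Aldoc differed in size between its probe sets, and S100b had wide intervals on both of its own. Aldoc on the probe set used (1451461_a_at) lay between 12.22 and 12.66 in all 8 arrays, with a change of 0.13 ± 0.13 (SE; interval -0.17 to 0.44; limma adjusted p = 0.920), and 0.071 to 0.21 when 1 animal was left out (without normal 1 and mutant 3). On 1424714_at it read 8.32, 8.48, 8.38 and 7.55 in normals 1 to 4 and 8.71, 9.46, 9.29 and 9.30 in mutants 1 to 4. On that probe set every mutant was above every normal, with a change of 1.01 ± 0.24 (SE), or 2.01-fold, and an interval of 0.46 to 1.56. It did not pass over all probe sets (limma adjusted p = 0.416). S100b differed by 0.16 ± 0.24 (SE; limma adjusted p = 0.947) on 1434342_at, where normals spanned 9.13 to 10.25 and mutants 9.63 to 10.18. It was 0.30 without normal 1, 0.28 without mutant 3, 0.095 without mutant 2 and -0.076 without normal 4. On 1419383_at the difference was 0.46 ± 0.63 (SE) and normal 4 stood at 6.90 while the other arrays lay between 8.85 and 9.94. Normal 4 was the lowest array on both S100b probe sets.

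Across the 23 probe sets, 19 had higher mutant means. In the fit over 22626 probe sets 20 passed in either direction (0.0884%), 0 of them a member's. The groups did not overlap for 2 of the 23, one of Aqp4 and one of Aldoc, with mutants above, as for 1.81% of all probe sets; mutants lay below for 0 of the 23 and for 1.75% of all. Normal 1, with the 3 prime minus 5 prime value of 3.58, was the lowest array on 7 of the 23, and on Gja1 1415801_at and Atp1b2 1422009_at it lay 0.89 and 1.33 under the next array. On the probe sets used for those genes it lay above the lowest of the other arrays, by 0.051 and 0.76. The part of RNA integrity in these readings was not tested.

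**Figure D3:**
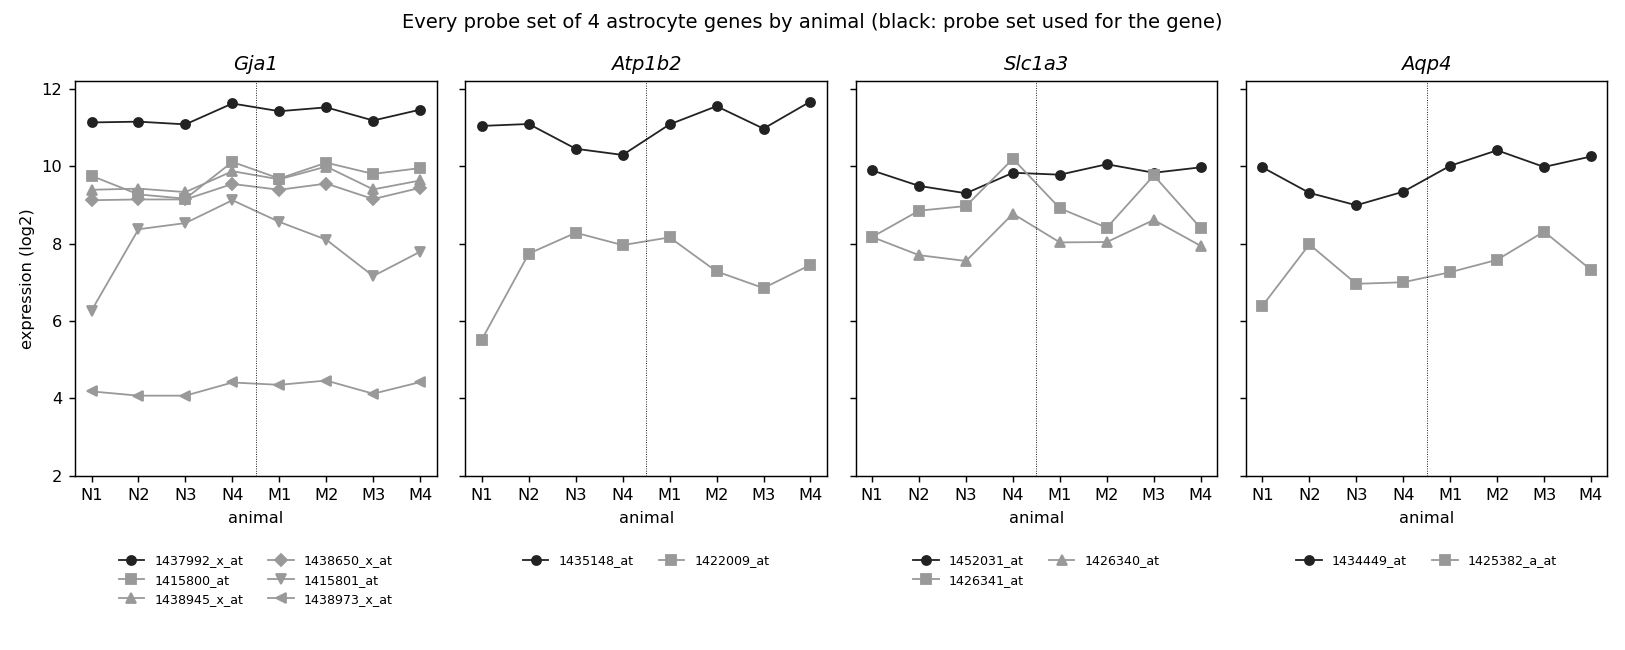
Expression (log2) of every probe set of Gja1, Atp1b2, Slc1a3 and Aqp4 in normals 1 to 4 (N1 to N4) and mutants 1 to 4 (M1 to M4), with lines joining the values of 1 probe set and no order implied among animals. Gja1 1415801_at and Atp1b2 1422009_at drop in normal 1, to 6.27 and 5.52, where the other probe sets of the same genes do not.

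The water channel, uptake and gap junction genes were then compared directly, by the difference between 2 genes within each array. Of 10 pairs among Aqp4, Slc1a2, Slc1a3, Gja1 and Gjb6, 0 passed after Benjamini-Hochberg adjustment over the 10 in a two-sided exact permutation test over 70 arrangements, in which 0.0286 is the smallest possible p. A single pair at that p has an adjusted p of at most 0.286, and 6 pairs at it would be needed to pass. Aqp4 minus Slc1a3 was 0.078, -0.19, -0.32 and -0.50 in normals 1 to 4 and 0.24, 0.36, 0.15 and 0.28 in mutants 1 to 4. It was the only pair whose groups did not overlap (difference of changes 0.49, exact permutation p = 0.0286, adjusted p = 0.229). The widest gap was between Aqp4 and Slc1a2, whose changes differed by 1.05 (exact permutation p = 0.0571, adjusted p = 0.229), with mutant 3 and normal 2 overlapping. Aqp4 and Gja1 differed by 0.61 (exact permutation p = 0.114, adjusted p = 0.229), with normal 1 among the mutants. The changes of the connexin genes Gja1 and Gjb6 differed by -0.38 (exact permutation p = 0.229, adjusted p = 0.327), and those of Slc1a2 and Slc1a3 by -0.57 (exact permutation p = 0.0857, adjusted p = 0.229).

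**Figure D4:**
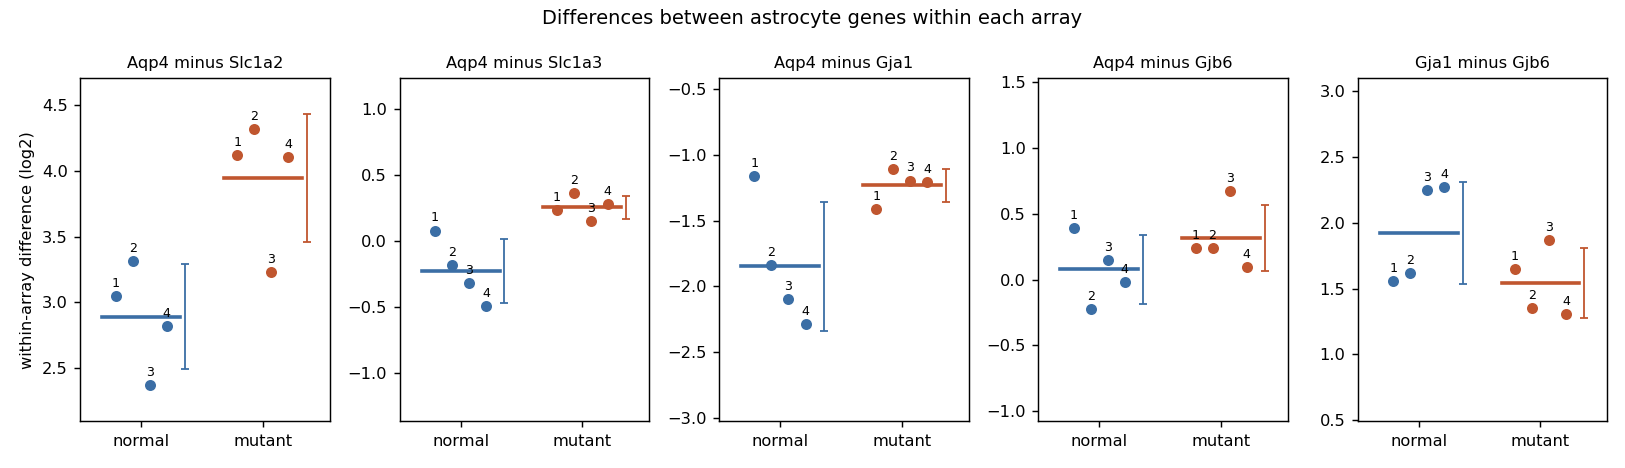
Within-array difference (log2) for 5 of the 10 gene pairs in each animal, with group means as thick lines and the SD as vertical bars (n = 4). The panels have axes of equal length. Aqp4 minus Slc1a3 separates the groups, with normals at or under 0.078 and mutants at or over 0.15.

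The members did not order the arrays alike. Mutant 2 was the highest array for Aqp4, Slc1a3 and Gjb6, mutant 1 for Aldoc, Glul and Sox9, mutant 4 for Atp1b2, normal 1 for Slc1a2 and S100b and normal 4 for Gja1. Normal 3 was the lowest for Aqp4, Slc1a3, Gja1 and Gjb6, and normal 4 for Glul, S100b and Atp1b2. Mutants 2 and 4 ranked among the top 2 arrays for 6 and 5 of the 10 genes. Mutants 1 and 4 were above a gene's 8-array mean for 9 genes each, mutant 2 for 8 and mutant 3 for 5, against 4 to 6 in normals.

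**Figure D5:**
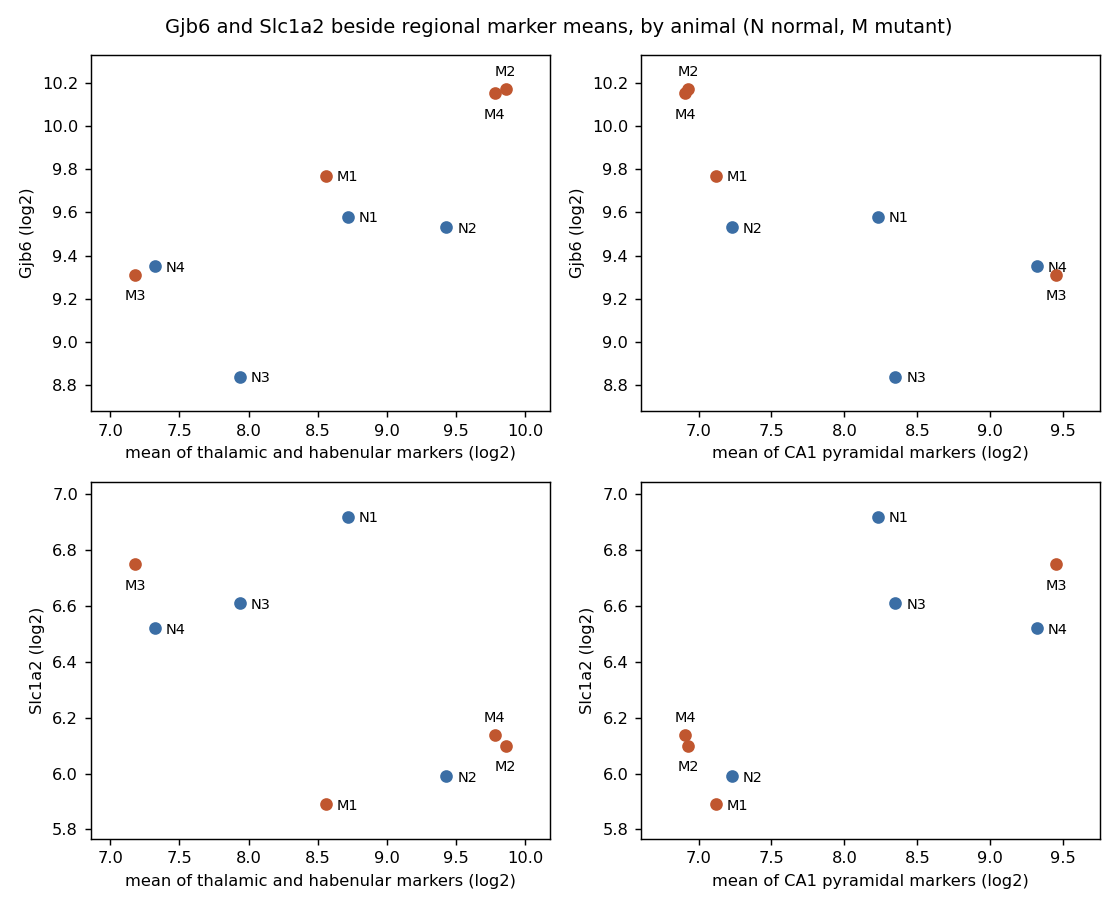
Gjb6 (top) and Slc1a2 (bottom), both in log2, against the mean of 12 thalamic and habenular markers (left) and of 4 CA1 pyramidal markers (right), 1 point per animal with normals in blue and mutants in orange. The arrays with CA1 means of 8.23 or more are those with the highest Slc1a2 (6.52 to 6.92), and mutants 2 and 4 are highest in both Gjb6 and the thalamic mean.

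Between male and female mice, no member's difference passed the threshold. In limma with genotype as a term, 0 of 10 members passed against 4 of all genes (0.0323%). At an unadjusted p under 0.05 stood 0 members and 242 genes (1.95%), so 0 of 10 is near the background. The genotype change of Aqp4 was 0.48 in females and 1.05 in males, with 2 animals a group in each. Slc1a2 was at -0.70 in females and 0.12 in males, and Slc1a3 at 0.013 and 0.54. The CA1 mean was 8.23 and 9.32 in normal females against 7.12 and 6.91 in mutant females. In males it overlapped, at 7.23 and 8.35 against 6.93 and 9.45. The part of CA1 content in these changes was not tested. Aldoc was at 0.40 in females and -0.13 in males. The interaction of genotype and sex passed for 0 of 10 members and 0% of all genes in limma. At an unadjusted p under 0.05 stood 1 member (Aldoc, limma adjusted p = 0.419) and 1419 genes (11.5%).

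Values below for other genes of each role are mutant minus normal (log2); of the 10 lists of related genes, Gfap alone passed. Of 25 other astrocyte identity genes, 17 had higher mutant means (median change 0.21) and 0 passed. Clu, which encodes the secreted chaperone clusterin, was at 0.25 ± 0.10 (SE; limma adjusted p = 0.693), with every mutant above every normal. Fabp7, a fatty acid binding protein gene of glial progenitors and astrocytes, was at 0.87 ± 0.37 (SE; limma adjusted p = 0.747). The means of these 25 genes were 9.49 to 9.70 in normals and 9.63 to 9.76 in mutants.

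Around the water channel, 7 of 9 genes for water and potassium handling had higher means (median 0.17) and 0 passed. Dtna, which encodes a dystrobrevin of the complex that anchors aquaporin-4, was at -0.53 ± 0.27, and Trpv4, a cation channel gene, at 0.55 ± 0.30 (SE). Kcnj10, the inward rectifier potassium channel gene of endfeet, named here for its role and outside the naming rule, was at 0.27 ± 0.26 (SE). Of 8 other aquaporins, 3 had higher means (median -0.065) and 0 passed. Aqp1, the water channel gene of choroid plexus epithelium, read 7.05 and 6.20 in mutants 1 and 3 and 3.02 to 3.45 in the other 6 arrays, which is within the range of the bacterial controls. Aqp9 was at 0.24 ± 0.15 (SE).

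Among 13 genes of the glutamate, glutamine and GABA cycle, 8 had higher means (median 0.078) and 0 passed. Slc7a11, which encodes the cystine and glutamate exchanger, read 4.88 to 5.34 in normals and 5.35 to 5.86 in mutants. Every mutant was above every normal, with a change of 0.56 ± 0.15 (SE; limma adjusted p = 0.411). Slc1a4, a neutral amino acid transporter gene of the same family as Slc1a2, was at 0.49 ± 0.17 (SE; limma adjusted p = 0.660).

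Of 13 other connexin and pannexin genes, 7 had higher means (median 0.014) and 0 passed. Gjb2, a connexin gene of astrocytes and meninges, read 6.49, 6.02, 5.54 and 5.45 in normals 1 to 4 and 6.38, 7.09, 6.86 and 7.17 in mutants 1 to 4. Mutant 1 alone fell within the normals, and the change was 1.00 ± 0.26 (SE; limma adjusted p = 0.411). The 11 meningeal fibroblast markers had means of 4.92 to 5.69 in normals and 5.82 to 6.52 in mutants; their part in the Gjb2 difference was not tested. Gjc3, a connexin gene of oligodendrocytes, was at -1.02 ± 0.38 (SE; limma adjusted p = 0.685). The 10 oligodendrocyte and myelin markers had means of 9.75 to 10.5 in normals and 8.71 to 9.48 in mutants, with Cnp at -0.84 and Ugt8a at -1.14.

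Of the lists for the remaining members, 6 of 9 other sodium pump subunit genes (median 0.066), 9 of 12 aldolase and glycolysis genes (0.026), 8 of 11 S100 genes (0.054) and 7 of 17 glial transcription factors (-0.059) had higher means, and 0 passed. Fxyd1, which encodes phospholemman, a regulator of the sodium pump, was at 1.14 ± 0.51 and Fxyd7 at 0.83 ± 0.39 (SE). For both the groups overlapped, and normal 4 was the lowest array (6.71 and 6.29). Hexokinase 1 (Hk1) was at 0.42 ± 0.14, with mutants above normals, and Pfkl at 0.30 ± 0.15. S100a6 was at 1.18 ± 0.55 and S100a1 at 0.83 ± 0.41 (SE), and normal 4 was the lowest array for both (4.49 and 7.46), as for S100b. Id3 was at 0.82 ± 0.26 and Sox2 at 0.31 ± 0.17 (SE).

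The reactive astrocyte gene Gfap, which encodes the intermediate filament of astrocytes, rose where the homeostatic genes did not pass. It read 7.08 to 7.80 in normals and 9.33 to 10.13 in mutants, a change of 2.27 ± 0.22 (SE; limma adjusted p = 0.00787). Because Gfap was taken up here with its rise known, its distance from the members is given without a test. Within arrays, the change of Gfap exceeded that of each member by 1.51 (Aqp4) to 2.56 (Slc1a2). Among 25 reactive astrocyte genes 22 had higher means, with a median of 0.28 and 1 (Gfap) past the threshold. Serpina3n, a protease inhibitor gene, was at 1.89 ± 0.34 (SE; limma adjusted p = 0.154).

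Markers of other cell types stood at differing levels in the groups, and 0 passed in any of these 12 lists; list values are means over the genes (log2) and gene values are mutant minus normal. Of 10 oligodendrocyte and myelin markers, 0 had higher mutant means. Of 12 microglia markers 7 did, with list means of 7.15 to 7.67 in normals and 7.81 to 8.14 in mutants (Fcrls at 0.89 and C1qc at 1.46). The remaining microglia markers had lower mutant means, from Csf1r at -0.19 to P2ry12 at -0.61, both named here outside the naming rule. All 12 choroid plexus markers had higher means, at 4.40 to 5.20 against 5.14 to 7.81 (Col8a1 at 0.54 and Otx2 at 1.30), as did all 11 meningeal ones (Aebp1 at 0.83 and Lum at 1.33). So did all 4 ependymal markers, whose means overlapped at 4.93 to 6.31 and 5.40 to 6.80 (Foxj1 at 0.54 and Meig1 at 0.66). All 9 endothelial markers did too, at 6.07 to 6.79 and 6.62 to 6.99 (Vwf at 1.05 and Kdr at 0.37).

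Among neurons, 4 of 11 pan-neuronal markers had higher mutant means, at 9.30 to 10.1 in normals and 9.45 to 9.97 in mutants (Gad1 at -0.52 and Stmn2 at 0.32). The counts were 5 of 7 for dentate markers, at 5.07 to 5.50 and 5.07 to 6.62 (Dsp at 1.27; Prox1 read 2.50 to 4.04 in normals, reaching below the highest bacterial control, and 2.90 to 5.08 in mutants), and 0 of 4 for CA1 (Pou3f1 at -1.34 and Man1a at -0.61). They were 11 of 12 for thalamic and habenular markers (Calb2 at 1.11 and Ntng1 at 0.93) and 7 of 10 for hypothalamic ones, at 6.47 to 9.38 and 6.13 to 9.14 (Nnat at 0.80 and Gal at 0.69). Of 9 striatal markers, which a hippocampal dissection should hold little of, 0 had higher mutant means, at 7.62 to 10.1 and 6.48 to 7.69 (Penk at -3.34 and Rgs9 at -2.37). Normals 1, 3 and 4 had striatal means of 9.34 or more, and normal 2 fell within the mutants. The part of these differences in the members' values was not tested beyond the alternatives given with each gene.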

How the data were processed

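The deposited values are log2 expression per probe set, normalized by the authors with RMA; GCOS 1.4 is also named, per the submitters' processing notes. Scanner files were not used here, and the genome build is not given in the sources used here. Of 22690 probe sets, 64 were controls, 691 carried several symbols and 1555 no listed gene. Symbols were updated through gene identifiers (99.9% matched). Each gene was represented by its brightest probe set over all arrays (12393 genes), with no filter on dim genes. Genotypes were tested by limma (version 3.58.1, under R 4.3.3; lmFit, eBayes) across all genes, and again across all 22626 non-control probe sets, with Benjamini-Hochberg adjustment and a threshold of 0.05. The steps were tested on simulated data. Pairs of members were compared by exact permutation. Intervals are 95% and moderated. The number of animals limits the precision.

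Members and lists were chosen with earlier results of these data known. Genes named besides the members are, from each of 22 marker or pathway lists, the pair with the smallest p and any past the threshold. The alternatives were 26 other settings: probe set choice, dim genes, normalization, variance models, sex, age and regional covariates, and left-out animals. The animal number series as a block, and leaving out the 4 arrays with the highest CA1 means, were added after the data were seen.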

Additional observations from a re-analysis of the deposited data

Results flagged for a closer look

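Single animals stood apart from their group in 5 of 46 sets of 4 values (23 probe sets in 2 groups), by a gap to the nearest animal, relative to the group's range, above Dixon's 95% critical value. About 1 in 20 sets, or 2.3, would be marked by chance. Glul 1426236_a_at was at 10.31 in normal 4, against 11.10 to 11.12 in the other normals. Gja1 was high in the same animal on 3 of its 6 probe sets, which measure 1 gene and are not independent: 11.62 on 1437992_x_at (others 11.08 to 11.15), 9.87 on 1438945_x_at (9.33 to 9.42) and 9.54 on 1438650_x_at (9.12 to 9.14). Slc1a3 1426340_at was at 8.61 in mutant 3, against 7.94 to 8.04 in the other mutants. Normal 4 was the youngest animal, at 14.6 weeks.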

How the results depend on the processing

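The count of members past the threshold was 0 in every alternative that left more than 1 animal a group. In those, 2 to 32 genes rose past it and 0 to 22 fell, of 7436 to 12393 tested. So 0 of 10 members says little by itself. Aqp4, Slc1a3, Gja1, Gjb6, Sox9 and Atp1b2 kept their direction in all 26 alternatives. Some of these, such as sex as a covariate, left the estimates unchanged. None used Slc1a3 1426341_at or Gja1 1415801_at alone, where the changes were both -0.17. The lowest adjusted p of Aqp4 was 0.0604, with array weights. The number of members whose groups did not overlap, 1 (3.88% of all genes in either direction), was 2 with the mean of all probe sets (4.07% of genes) and 0 with median centring (3.66%). It was 4 without mutants 1 and 3 (17.6%), 2 without mutants 2 and 4 (10.8%), and 1 to 3 when 1 animal was left out (3 without normal 4, 6.58%; 2 without mutant 3, 7.63%); fewer arrays separate more genes. The median change over the members was 0.36 with array weights. Glul turned to -0.19 with the mean of its probe sets, -0.0033 with array weights, -0.079 with 2 regional components and -0.091 without the 4 arrays of highest CA1 means. Slc1a2 turned to 0.014 with 1 and 0.016 with 2 regional components and 0.050 without those 4 arrays, which left 1 normal. Aldoc there was at -0.0041, while with the mean of its probe sets it was at 0.57 (limma adjusted p = 0.398). S100b was at -0.018 with 1 regional component. Leaving out 1 animal gave -0.089 to 0.18 for Glul and -0.076 to 0.30 for S100b, both negative only without normal 4. For these reversals the cause was not tested. The sex, interaction and probe set counts stayed at 0 in the alternatives run on them; that of gene pairs did too, which says nothing about stability, since 6 pairs at the smallest p are needed to pass. No paired analysis was possible because the labels give no replicate numbers or litters that tie each normal to 1 mutant. Blocks that do not tie each normal to 1 mutant were fitted instead. With the animal number series as a block the limma adjusted p of Aqp4 was 0.405, and with age as a random block 0.544. Of the age blocks, those of 38.3 and 19.6 weeks each held 1 normal and 1 mutant. With 4 animals a group, Aqp4's interval still spans 0.28 to 1.24.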
